A study of Sus scrofa with 4 samples.

Results

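Solute carriers are the membrane proteins that move amino acids, sugars, ions, vitamins and other small solutes into and out of cells and organelles. The genes described here are the rows of a pig gene table whose symbol has the form of an SLC family number, the letter A and a member number. The SLC25 mitochondrial carriers, the zinc transporter families SLC30 and SLC39 and 7 further transporters of glucose, cystine, iron and phosphate were left out by the rule. That left 144 of the 14804 genes in the table. Of these, 139 encode transporters and 5 match by name only, being proteins that bind, regulate or lie beside a carrier.

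The cells were primary interstitial cells of the pig (Sus scrofa) aortic valve, the fibroblast-like cells of the valve leaflet, and the series title concerns nitric oxide (NO) and calcification of the valve. The group treated with NO received the donor DETANONATE (detaNONOate), at 150 µM, for 5 days, and the control group was cultured for 5 days without it. Further groups had the donor for 3 days and then 2 days without it, or S-nitrosoglutathione (GSNO) at 200 µM for 5 days; these were not analysed here. Each group was 1 droplet single-cell library of dissociated primary culture, and neither the number of animals nor their strain, age or sex is given in the labels.

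The table holds 3 columns per library, with 7064703, 7151367 and 7073246 counts for the NO donor and 6486628, 7252735 and 8067661 counts for the control. How the columns were made is not given in the sources used here, so they were taken as parts of 1 library, and the treatment could not be tested. A level is the normalised count of a library, its summed count over its summed size factors, and the ratio of levels is NO donor over control with an exact 95% interval that covers counting error only. Where no fold is named, a ratio below is on the log2 scale. Counts are summed over cells, so fewer expressing cells and less RNA per cell cannot be told apart, and levels are not compared between genes. A member was called higher or lower at 1 log2 unit or more, among genes with at least 30 counts over both libraries. Scaling each library to its total count adds 0.60 to every log2 ratio and puts the median of all genes at 0.61, against 0.02 at the authors' scaling; values at total count scaling are therefore given beside the main ones.

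The table held rows for all 10 markers of valve interstitial cells, and 9 were lower in the NO donor library, with a summed level of 41070 in the NO donor library against 195192 in the control. VIM, the intermediate filament of mesenchymal cells, stood at 26546 in the NO donor library against 75713 in the control. Of the 8 endothelial markers 2 had rows, with a summed level of 211 in the NO donor library against 334 in the control, nearly all of it PECAM1. Of the 10 leukocyte markers 3 had rows, at a summed level of 167 in the NO donor library against 162 in the control, nearly all of it CD14; AIF1 had 35 counts against 1 and CD68 24 against 4. Of the 7 cardiomyocyte markers 1 had a row, at 9.52 in the NO donor library against 15.2 in the control. VWF, CDH5, PTPRC and the other listed markers without a row were not analysed here. The part these markers play in the results was not tested.

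Cells take up most nutrients through secondary transport, in which a carrier couples its substrate to a sodium, proton or exchange gradient. Some carriers work as pairs, as SLC3A2 does with the SLC7 light chains that exchange amino acids at the plasma membrane. Others sit in lysosomes, endosomes or the Golgi and return digested products to the cytosol or load sugars for glycosylation.

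Of the 144 members, 116 had at least 30 counts over both libraries and 28 did not. Of the 116, 29 were higher in the NO donor library against 19 lower, which is 25% and 16.4% of them. Among all 12409 genes with at least 30 counts, 13.2% were higher and 18.4% lower by the same rule. The median log2 ratio of the members was 0.06, beside 0.02 over all genes. The sum of the members' levels was 15343 in the NO donor library against 15453 in the control, so the differences below are between members and not in their total at this scaling. As shares of all counts the members held 0.265% in the NO donor library against 0.177% in the control.

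With total count scaling 46 members were higher and 11 lower, 39.7% and 9.48% of the 116, beside 33% and 10.5% of all genes. Under the TMM scaling of edgeR 30 were higher and 18 lower, beside 13.7% and 18.1% of all genes. At a size rule of 0.5 log2 units 44 were higher and 33 lower, beside 29% and 30.3%. All 3 NO donor columns lay above all 3 control columns for 47 members (40.5%, beside 39% of all genes) and below them for 38 (32.8%, beside 37.9%). In the authors' deposited table, 38 of the 136 members with an adjusted p-value were higher and 28 lower at an adjusted p under 0.05, or 27.9% and 20.6%. That table calls 24.7% of all genes higher and 26.4% lower by DESeq2 over the 6 columns, and that p is no test of the treatment. In the 93 members with at least 30 counts in each library, the spread of the 3 columns was set against that of Poisson counting. Its mean was 1.21 times the Poisson prediction in the NO donor library against 1.03 times in the control. This measure is skewed, so its medians, 0.93 and 0.75, lie below its means and are not read against Poisson counting.

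**Figure D1:**
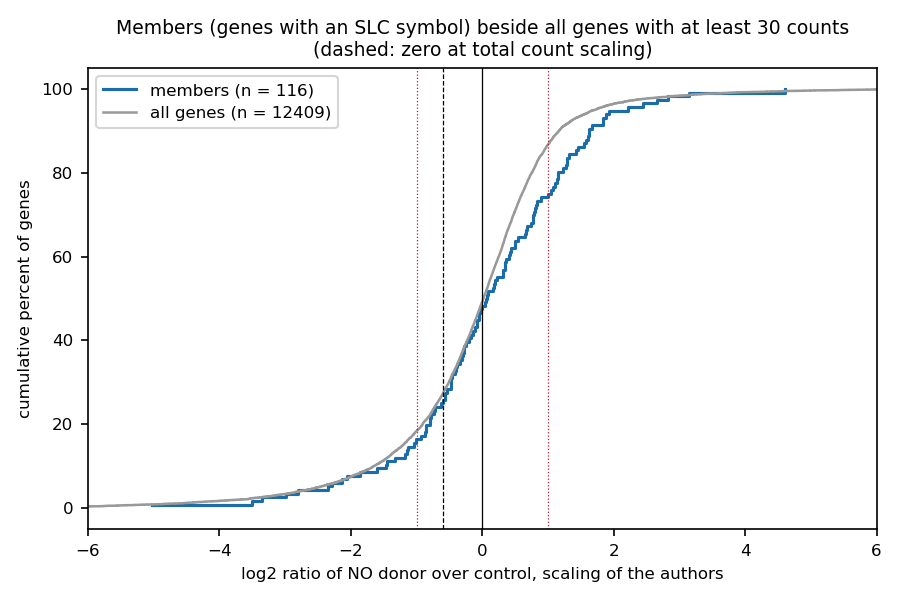
Cumulative percent of genes against the log2 ratio of NO donor over control at the authors' scaling, for the 116 members, the 5 that are not transporters included, and for all 12409 genes with at least 30 counts. The 2 curves lie close below 0, and at the size rule on the right, where 25% of the members and 13.2% of all genes lie beyond, the members' curve runs lower.

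**Figure D2:**
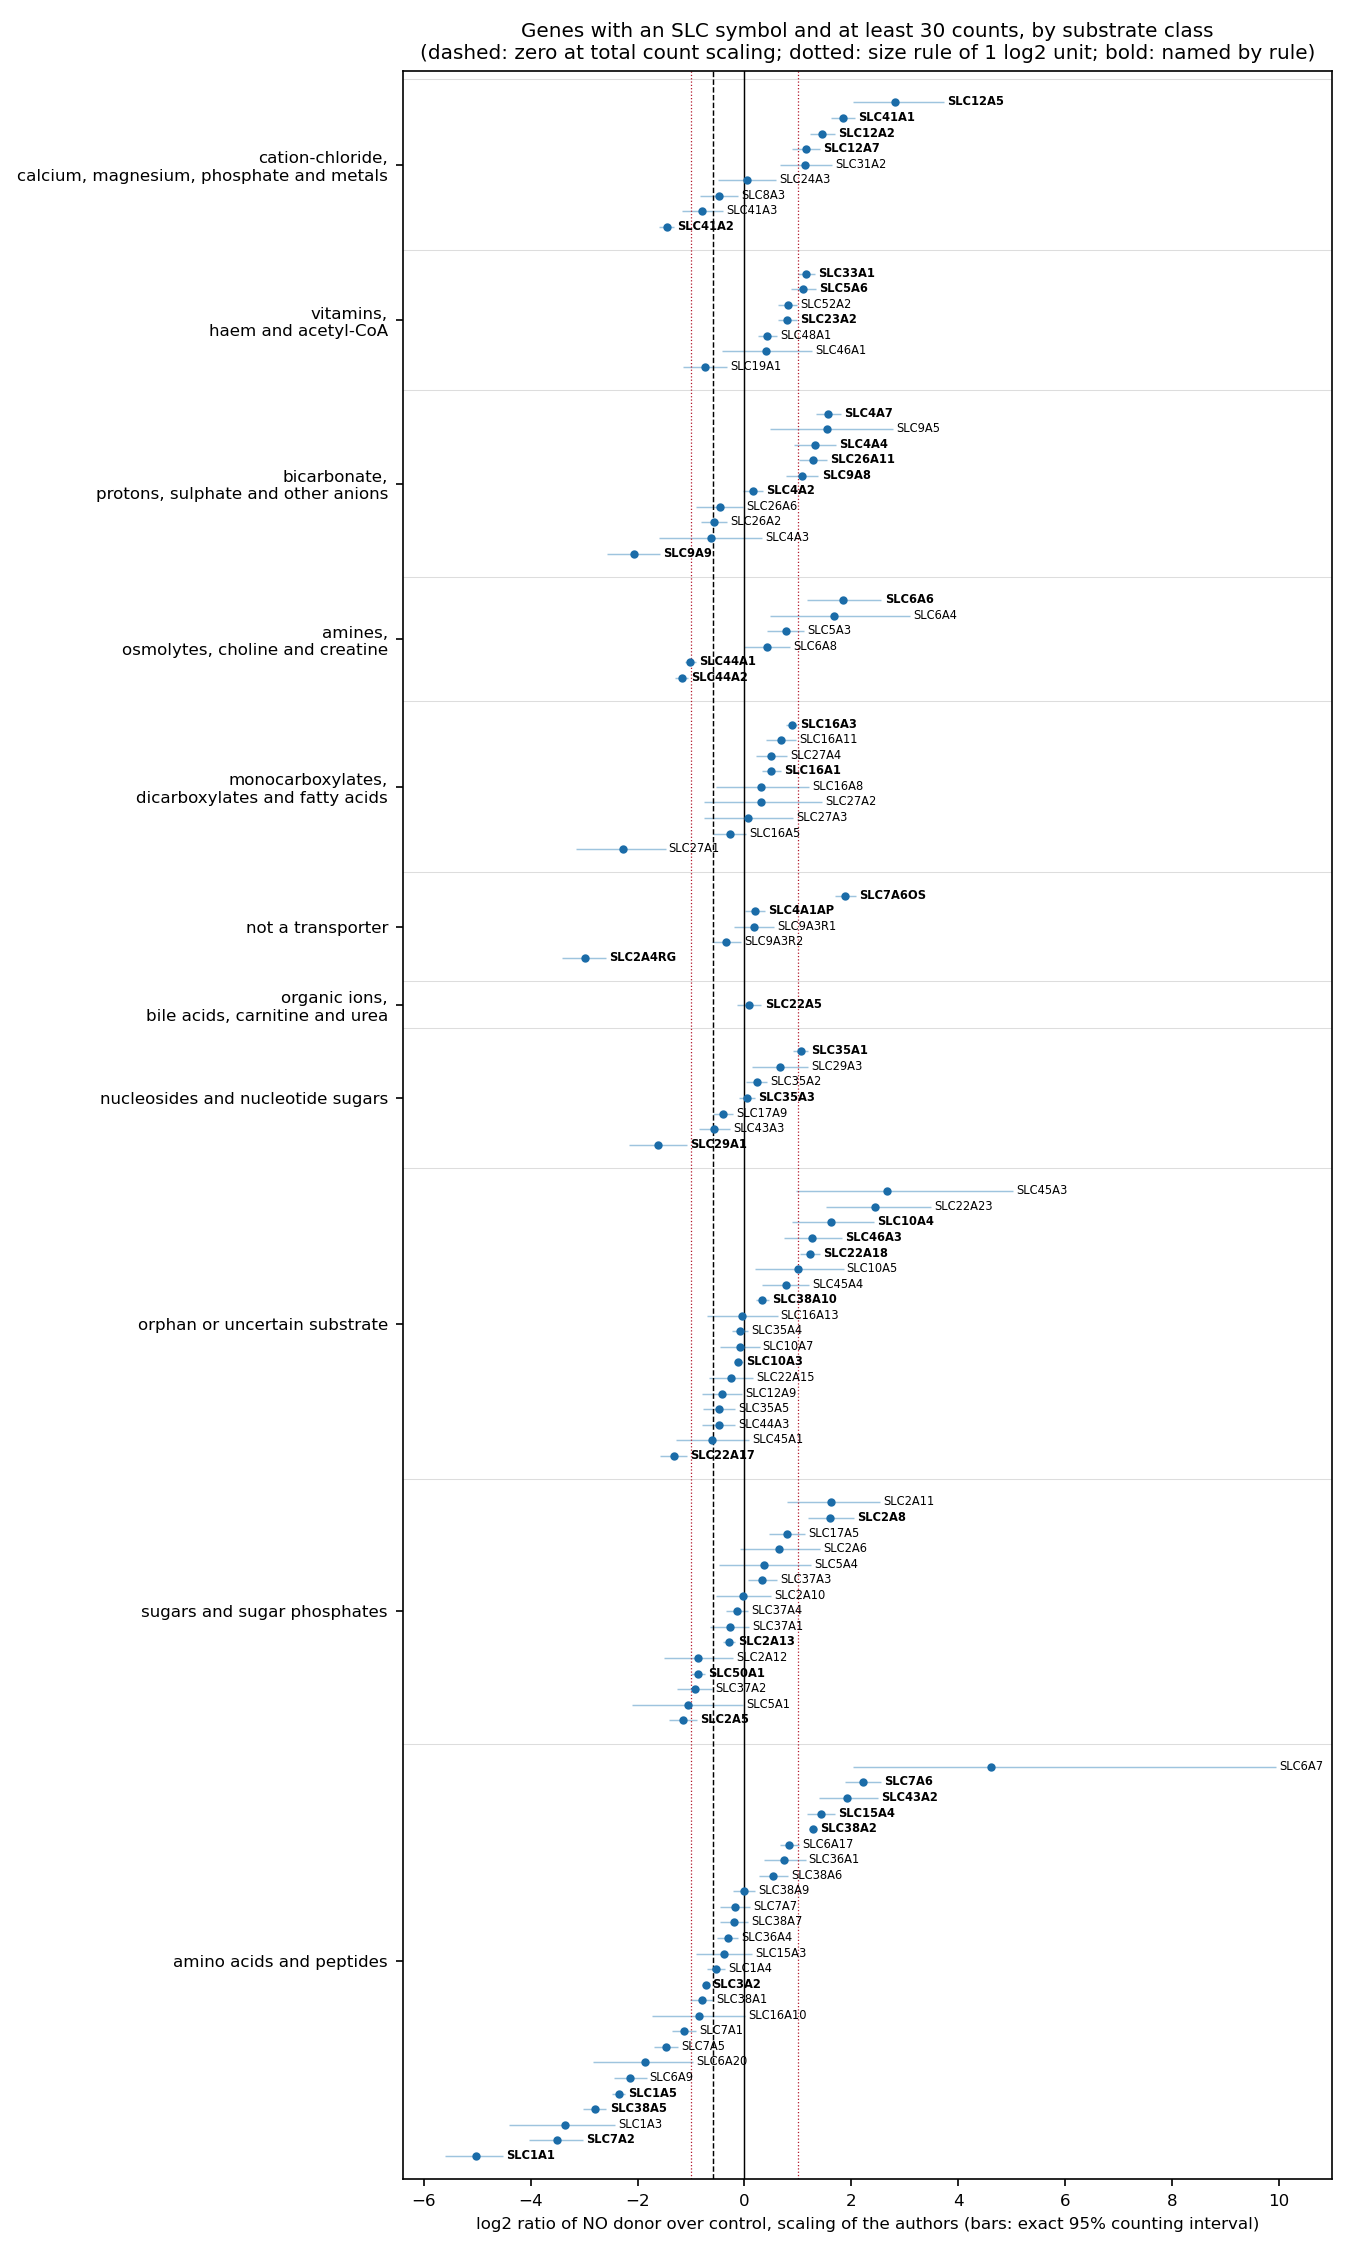
Log2 ratio of NO donor over control for 113 of the 115 members, the 5 that are not transporters included, with at least 30 counts in all and at least 1 in each library, by substrate class, with exact 95% counting intervals. Amino acid carriers span the widest range, −5.03 to 4.61, the dashed line marks the zero of total count scaling, SLC5A7, with no control count, is not drawn, and the other two members left out are not reported by name.

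Amino acid and peptide carriers held the lowest ratios among the members. Of 26 members over the minimum 9 were lower and 5 higher, with a median log2 ratio of −0.46. These are 34.6% and 19.2%, beside 18.4% lower and 13.2% higher among all genes. Total count scaling gave 7 lower and 8 higher, with a median of 0.14. Those are 26.9% and 30.8%, beside 10.5% lower and 33% higher among all genes. The lower ones include carriers of glutamate, glutamine, glycine and cationic amino acids, and the higher ones include SLC38A2, SLC7A6 and the lysosomal SLC15A4.

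SLC1A1, the neuronal and epithelial type carrier of glutamate and cysteine (chromosome 1, 217366493 to 217441643, Sscrofa11.1), had the lowest ratio of all members. Its normalised counts were 9.77, 9.74 and 5.75 in the NO donor columns and 291, 272 and 268 in the control columns. The columns were far apart, and the level was 32.7-fold lower in the NO donor library (22.9 to 48.6), from 31 counts against 688. SLC1A5, which exchanges glutamine and other neutral amino acids (chromosome 6, 52647432 to 52661464), had 178, 155 and 190 in the NO donor columns and 874, 926 and 876 in the control columns, 5.12-fold lower (4.68 to 5.60). SLC1A3, a second glutamate carrier best known from glia, had 11 counts in the NO donor library against 76 in the control; its log2 ratio was −3.35, with an interval of −4.41 to −2.43. Of the SLC1 family, 4 members passed the minimum and 3 were called lower, or 75%, beside 18.4% of all genes. The summed family level was 343 in the NO donor library against 1430 in the control. SLC1A2, below the minimum, had 6 counts in the NO donor library against 17 in the control. SLC1A4, a carrier of serine and alanine, was nearest to the control, at 141, 152 and 175 in the NO donor columns and 239, 198 and 238 in the control columns; its log2 ratio of −0.53 became 0.07 at total count scaling.

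The cationic amino acid carriers had ratios of either sign. SLC7A2, an arginine and lysine uniporter (chromosome 17, 5191973 to 5271849), had 10.6, 7.30 and 14 in the NO donor columns and 98.2, 136 and 125 in the control columns, 11.4-fold lower (8.14 to 16.3). SLC7A1, the more widely expressed uniporter of the same substrates, had 70.8, 81.1 and 87.1 in the NO donor columns and 176, 169 and 177 in the control columns. It was 2.19-fold lower, a log2 ratio of −1.13 that became −0.53 at total count scaling, short of the size rule. SLC7A6, a light chain that exchanges cationic for neutral amino acids (chromosome 6, 28834797 to 28876154), went the other way. It had 132, 168 and 187 in the NO donor columns and 44.4, 29.2 and 32.4 in the control columns, 4.65-fold higher (3.71 to 5.89). Its NO donor columns varied 5.97 times as much as Poisson counting, the most of the 93 members with at least 30 counts in each library, so its interval, which covers counting error only, understates the spread of its columns. SLC7A7, its close relative, had 77.4, 73.0 and 59.2 in the NO donor columns and 75.3, 83.8 and 77.8 in the control columns, which overlapped.

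SLC7A5, the light chain that takes up leucine and other large neutral amino acids, had 65.1, 73.0 and 76.4 in the NO donor columns and 206, 194 and 193 in the control columns. It was 2.76-fold lower (2.37 to 3.22), and its log2 ratio of −1.46 became −0.87 at total count scaling. In the RefSeq annotation of Sscrofa11.1 this locus (chromosome 6, 1545940 to 1574298) is entered as a non-coding RNA gene, the only member that is not annotated as protein-coding. SLC3A2, the heavy chain that pairs with SLC7A5, SLC7A6 and SLC7A7 (chromosome 2, 8892071 to 8919070), had 925, 936 and 948 in the NO donor columns and 1511, 1532 and 1595 in the control columns. Its log2 ratio of −0.73 (−0.79 to −0.66) stayed inside the size rule and became −0.13 at total count scaling. The heavy chain and its light chains thus stood at ratios from −1.46 to 2.22.

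Among the sodium-coupled carriers of glutamine and small neutral amino acids, SLC38A5 and SLC38A2 had opposite signs. SLC38A5, which carries glutamine, glycine and serine (chromosome X, 42590608 to 42601537), had 52.9, 60 and 50.1 in the NO donor columns and 367, 374 and 394 in the control columns, 6.98-fold lower (5.99 to 8.17). SLC38A2, a carrier that cells are known to raise when amino acids are short (chromosome 5, 77113491 to 77127715), had 1924, 1825 and 1895 in the NO donor columns and 784, 762 and 768 in the control columns. It was 2.44-fold higher (2.32 to 2.57), with no overlap of columns. SLC38A1, a carrier of the same type, had 103, 78.7 and 97.0 in the NO donor columns and 167, 146 and 173 in the control columns; its log2 ratio of −0.80 became −0.21 at total count scaling. SLC38A9, the lysosomal arginine sensor, was at 117, 140 and 132 in the NO donor columns and 117, 135 and 138 in the control columns, a log2 ratio of −0.01 (−0.22 to 0.20) that total count scaling turned to 0.59.

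SLC6A9, the glycine transporter, had 39.1, 28.4 and 30.4 in the NO donor columns and 124, 164 and 140 in the control columns, 4.39-fold lower (3.56 to 5.44). SLC6A20, a proline carrier, had 15 counts in the NO donor library against 37 in the control. Above the control, SLC43A2, a uniporter of large neutral amino acids, had 45.6, 56.8 and 53.4 in the NO donor columns and 12.1, 17.0 and 11.9 in the control columns, 3.81-fold higher (2.63 to 5.66). SLC15A4, which exports histidine and peptides from lysosomes, had 160, 180 and 162 in the NO donor columns and 63.2, 64.4 and 59.4 in the control columns, 2.69-fold higher (2.25 to 3.23). SLC6A7, a proline carrier known from brain, had 36 counts in the NO donor library against 1 in the control, 24.4-fold higher with an interval of 4.11 to 990. SLC6A17, a vesicular amino acid carrier, and SLC36A1, the lysosomal proton-coupled carrier, had log2 ratios of 0.84 and 0.75, which passed the size rule at total count scaling only, at 1.43 and 1.34. The other members of the class over the minimum, SLC36A4, SLC38A6, SLC38A7, SLC15A3 and SLC16A10, had ratios between −0.86 and 0.54.

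**Figure D3:**
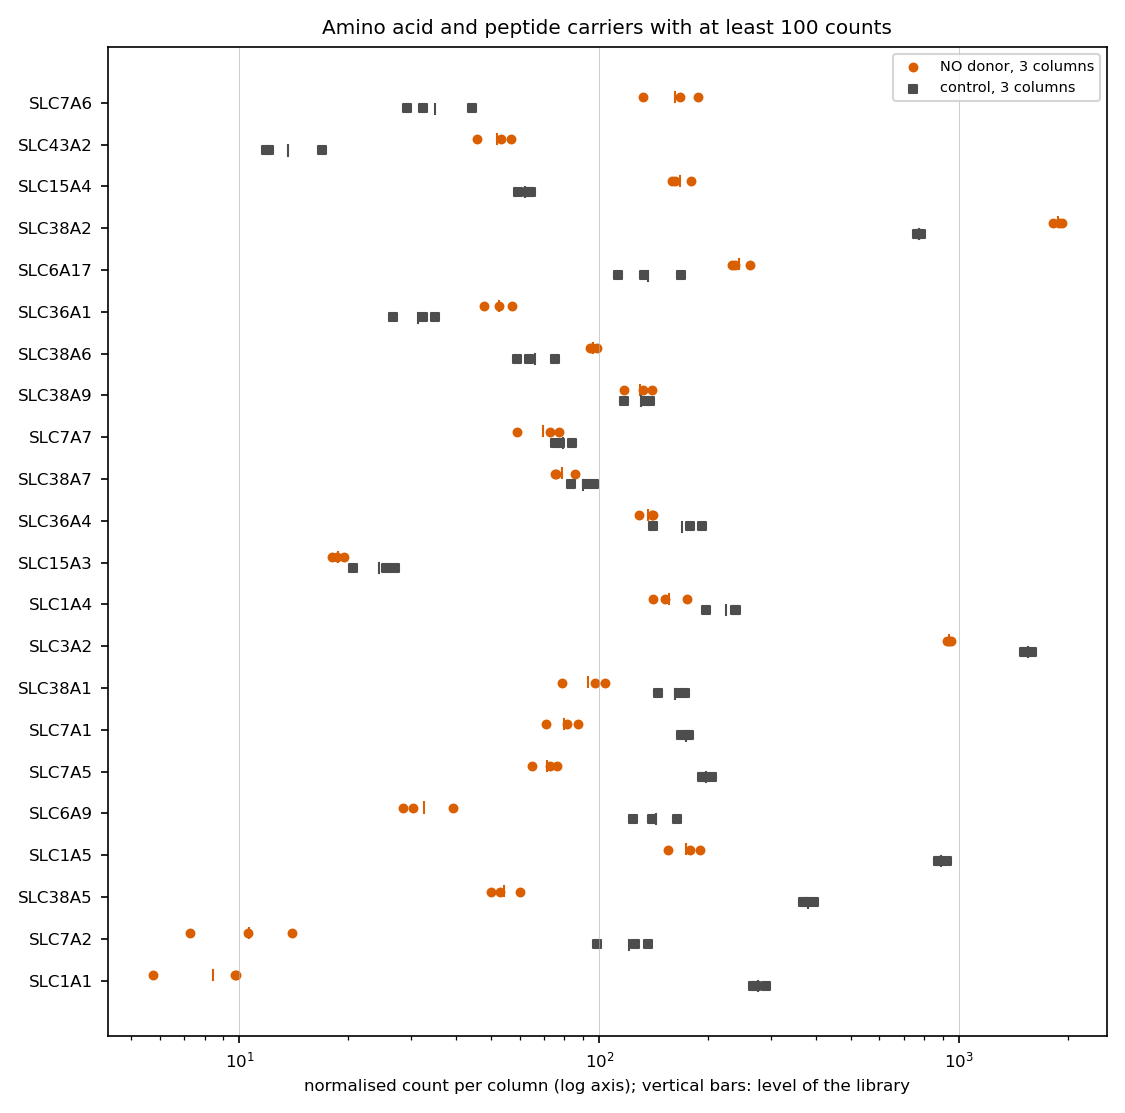
Normalised counts of the amino acid and peptide carriers with at least 100 counts, on a log axis, with 3 NO donor columns (circles) and 3 control columns (squares) per gene and a vertical bar at the level of each library. From SLC7A6 at the top, 4.65-fold higher in the NO donor library, to SLC1A1 at the bottom, 32.7-fold lower, the columns of a library lie close together beside the distance between libraries at both ends and overlap in the middle.

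The DNA just before the annotated starts of the 4 lowest and of 2 higher amino acid carriers with at least 100 counts is shown so that genes with lower and higher levels can be set side by side. Each run is the 250 bases before the start of the gene in the RefSeq annotation of Sscrofa11.1, read 5′ to 3′ on the strand of the gene. Capitals mark a match on either strand to 1 of 3 motifs that were searched: TGATGNAA, the core of the amino acid response element bound by ATF4; TGACNNNGC, the antioxidant response element; and CACGTG, the E-box core of the lysosomal gene motif. No run shown holds more than 1 match, so no matches overlap. The spans are chr1:217441644-217441893, minus strand, for SLC1A1; chr17:5191723-5191972, plus strand, for SLC7A2; chrX:42601538-42601787, minus strand, for SLC38A5; chr6:52661465-52661714, minus strand, for SLC1A5; chr6:28834547-28834796, plus strand, for SLC7A6; and chr5:77127716-77127965, minus strand, for SLC38A2.
SLC1A1: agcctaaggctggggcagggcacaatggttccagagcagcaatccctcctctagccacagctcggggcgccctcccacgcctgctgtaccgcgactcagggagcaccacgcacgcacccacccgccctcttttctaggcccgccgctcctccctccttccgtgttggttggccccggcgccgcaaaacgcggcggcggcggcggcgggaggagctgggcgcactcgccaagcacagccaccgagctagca
SLC7A2: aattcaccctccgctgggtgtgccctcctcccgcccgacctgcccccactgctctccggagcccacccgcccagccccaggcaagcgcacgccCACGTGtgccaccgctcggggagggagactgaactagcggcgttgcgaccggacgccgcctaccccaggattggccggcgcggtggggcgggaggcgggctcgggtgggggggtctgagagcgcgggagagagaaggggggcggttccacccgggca
SLC38A5: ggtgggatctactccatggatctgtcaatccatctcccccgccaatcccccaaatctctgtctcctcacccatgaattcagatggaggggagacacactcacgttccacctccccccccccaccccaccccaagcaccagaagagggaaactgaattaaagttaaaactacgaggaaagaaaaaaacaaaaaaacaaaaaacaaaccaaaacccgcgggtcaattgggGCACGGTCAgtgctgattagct
SLC1A5: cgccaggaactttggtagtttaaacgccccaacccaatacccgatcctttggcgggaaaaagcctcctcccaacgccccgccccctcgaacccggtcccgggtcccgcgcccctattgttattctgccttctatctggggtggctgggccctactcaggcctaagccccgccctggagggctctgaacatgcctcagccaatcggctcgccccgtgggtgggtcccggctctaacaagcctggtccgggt
SLC7A6: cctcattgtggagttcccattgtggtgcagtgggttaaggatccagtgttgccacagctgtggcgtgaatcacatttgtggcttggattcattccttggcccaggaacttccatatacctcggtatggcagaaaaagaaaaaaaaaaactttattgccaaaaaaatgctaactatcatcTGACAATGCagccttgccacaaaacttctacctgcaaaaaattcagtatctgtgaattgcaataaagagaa
SLC38A2: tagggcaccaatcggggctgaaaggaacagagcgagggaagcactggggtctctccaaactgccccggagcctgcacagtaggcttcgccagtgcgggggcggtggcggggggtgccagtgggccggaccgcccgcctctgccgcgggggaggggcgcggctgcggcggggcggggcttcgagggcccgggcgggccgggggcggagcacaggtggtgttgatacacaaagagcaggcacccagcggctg

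TGATGNAA was in none of these 6 runs, nor in that of any of the 25 amino acid members over the minimum with a protein-coding start. Only bases before the annotated start were searched, so a match within a gene or further away would not be seen. Whether these genes, SLC38A2 among them, hold the element elsewhere was not tested. TGATGNAA was in 1 of the 143 members' runs, that of SLC22A17. It was in 2.61% of the runs of 20612 protein-coding genes, and in 1.76% of those of the 11634 with at least 30 counts. TGACNNNGC was in 11.2% of the members' runs, 9.84% of all runs and 10.8% of those of genes over the minimum. It marks SLC38A5, which was lower, and SLC7A6, which was higher. CACGTG was in 10.5% of the members' runs, 6.17% of all runs and 7.59% of those of genes over the minimum, and marks SLC7A2. A match is a run of letters and no measured site, and SLC7A5 has no run here because its annotated gene is not protein-coding.

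Carriers of cations with chloride, of calcium, magnesium and metals were more often higher than lower. Of 10 members over the minimum 5 were higher and 1 lower, and the median log2 ratio was 0.59. These are 50% and 10%, beside 13.2% and 18.4% of all genes. Total count scaling gave 5 and 0 with a median of 1.19, or 50% and 0%, beside 33% and 10.5%. Among the cation-chloride cotransporters, SLC12A2, which brings sodium, potassium and chloride into the cell (chromosome 2, 131016430 to 131109307), had 217, 222 and 208 in the NO donor columns and 94.2, 65.6 and 77.8 in the control columns, 2.74-fold higher (2.34 to 3.22). SLC12A7, a potassium and chloride exporter, had 142, 147 and 141 in the NO donor columns and 59.2, 53.5 and 77.8 in the control columns, 2.23-fold higher. SLC12A5, the exporter of the same kind that is best known from neurons, had 38.3, 30 and 51.0 in the NO donor columns and 8.07, 2.43 and 6.48 in the control columns, 7.07-fold higher (4.08 to 13.2) from 146 counts against 14. The columns of these 3 genes did not overlap.

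The magnesium carriers of the SLC41 family differed in sign at the authors' scaling. SLC41A1, the sodium-coupled magnesium exporter (chromosome 9, 66473369 to 66500367), had 292, 295 and 289 in the NO donor columns and 92.8, 59.5 and 91.8 in the control columns, 3.58-fold higher (3.08 to 4.18). SLC41A2 (chromosome 5, 79593913 to 79721599) had 173, 179 and 149 in the NO donor columns and 463, 407 and 499 in the control columns, 2.74-fold lower, or −1.46 in log2 units and −0.86 at total count scaling. SLC41A3 had a log2 ratio of −0.79. SLC31A2, a copper transporter of endosomes and lysosomes, had 44.8, 34.9 and 47.7 in the NO donor columns and 16.1, 24.3 and 17.3 in the control columns, 2.20-fold higher. The calcium exchangers SLC8A3 and SLC24A3 stayed inside the size rule, at −0.48 and 0.04, and SLC8A1, known as the exchanger of heart muscle, had 6 counts in the NO donor library against 3 in the control.

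Bicarbonate, proton and sulphate carriers had 5 of 11 members higher and 1 lower, and the median was 0.16. Total count scaling left the counts at 5 and 1, with a median of 0.76. The shares, 45.5% and 9.09%, stand beside 13.2% and 18.4% of all genes, or 33% and 10.5% at total count scaling. Both sodium bicarbonate cotransporters over the minimum, which load base into cells, were higher. SLC4A7 (chromosome 13, 13933552 to 14043108) had 245, 225 and 250 in the NO donor columns and 70.0, 85.0 and 85.3 in the control columns, 2.97-fold higher (2.55 to 3.48). SLC4A4 had 71.7, 69.8 and 64.9 in the NO donor columns and 28.2, 27.9 and 27.0 in the control columns, 2.48-fold higher (1.90 to 3.29). SLC4A2, which exchanges chloride for bicarbonate, was at 182, 161 and 185 in the NO donor columns and 152, 164 and 156 in the control columns, with overlapping columns and a log2 ratio of 0.16 (−0.02 to 0.35). SLC26A11, a sulphate and chloride carrier found on lysosomes, had 164, 137 and 147 in the NO donor columns and 67.3, 66.8 and 51.9 in the control columns, 2.44-fold higher.

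The sodium-proton exchangers of endomembranes differed among themselves. SLC9A8, which resides in the Golgi and endosomes, had 112, 97.4 and 98.6 in the NO donor columns and 52.5, 55.9 and 38.9 in the control columns, a log2 ratio of 1.08 that fell short of the size rule at 0.92 when control column 3 was left out. SLC9A9, of late recycling endosomes, had 10.6, 16.2 and 13.2 in the NO donor columns and 57.8, 57.1 and 52.9 in the control columns, 4.19-fold lower (3 to 5.92). SLC9A7 had 20 counts in the NO donor library against 0 in the control. SLC4A3 and SLC26A6, both anion exchangers, had ratios of −0.63 and −0.46. SLC9A5, an exchanger of the plasma membrane and endosomes, had 39 counts in the NO donor library against 9 in the control, with overlapping columns. SLC26A2, which supplies sulphate for the sulphation of proteoglycans in cartilage, had 79.0, 87.6 and 61.6 in the NO donor columns and 122, 104 and 113 in the control columns; its log2 ratio of −0.57 became 0.02 at total count scaling.

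**Figure D4:**
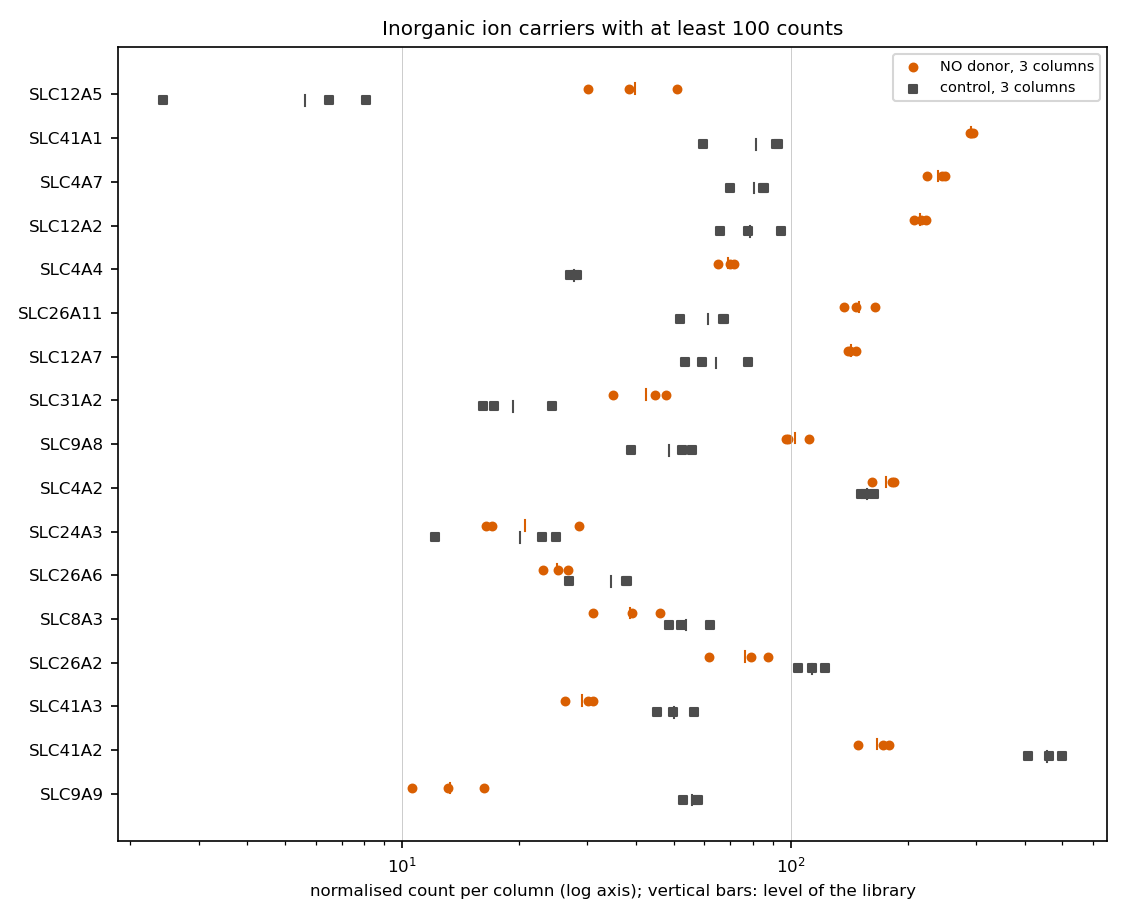
Normalised counts of inorganic ion carriers with at least 100 counts, on a log axis, with 3 NO donor columns (circles) and 3 control columns (squares) per gene and a vertical bar at the level of each library. SLC12A5, SLC41A1 and SLC4A7 lead above the control, at 7.07-fold, 3.58-fold and 2.97-fold, and SLC9A9 and SLC41A2 lie lowest, at 4.19-fold and 2.74-fold below it.

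Carriers of amines, osmolytes, choline and creatine had 3 of 7 members higher and 2 lower, and the median log2 ratio was 0.77. As shares these are 42.9% and 28.6%, beside 13.2% and 18.4% of all genes. At total count scaling 5 were higher and none lower, with a median of 1.37. Those are 71.4% and 0%, beside 33% and 10.5%. The lower ones at the authors' scaling were choline carriers of the SLC44 family. SLC44A1, a choline transporter of the plasma membrane and mitochondria, had 401, 363 and 385 in the NO donor columns and 765, 796 and 757 in the control columns, 2.02-fold lower (1.88 to 2.16). SLC44A2, its relative, had 276, 255 and 287 in the NO donor columns and 651, 595 and 604 in the control columns, 2.26-fold lower (2.08 to 2.45). At total count scaling they stood at −0.42 and −0.58 and neither was called; SLC44A1 also fell short at TMM scaling, at −0.97 without NO donor column 2 and at −0.99 without control column 2. SLC5A7, the high-affinity choline transporter known from cholinergic neurons, had 9.77, 8.11 and 14 in the NO donor columns and 0 in each control column. With the control set to a floor of 3 counts per library it was at least 8.81-fold higher, and the lower limit of the exact interval was 6.83-fold.

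The osmolyte, creatine and serotonin carriers were higher or stayed inside the size rule at the authors' scaling. SLC6A6, the taurine transporter, had 32.6, 29.2 and 32.9 in the NO donor columns and 6.73, 6.07 and 13 in the control columns, 3.57-fold higher (2.25 to 5.92). SLC5A3, the myo-inositol transporter, had 66.8, 69.0 and 69.9 in the NO donor columns and 48.4, 37.7 and 35.7 in the control columns, a log2 ratio of 0.77 that became 1.37 at total count scaling. SLC6A8, the creatine transporter, had a ratio of 0.42 (−0.01 to 0.85). SLC6A4, the serotonin transporter, was called higher, with 33 counts in the NO donor library against 7 in the control. Its log2 ratio was 1.68 (0.47 to 3.10).

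Vitamin, haem and acetyl-CoA carriers had 2 of 7 members higher and none lower, and the median was 0.80. As shares these are 28.6% and 0%, beside 13.2% and 18.4% of all genes. Total count scaling gave 5 higher and none lower, with a median of 1.39. Those are 71.4% and 0%, beside 33% and 10.5%. SLC33A1, which takes acetyl-CoA into the endoplasmic reticulum (chromosome 13, 95690453 to 95724239), had 344, 376 and 374 in the NO donor columns and 165, 168 and 159 in the control columns, 2.23-fold higher (1.99 to 2.49). SLC5A6, the sodium-dependent transporter of biotin and pantothenate, had 176, 187 and 155 in the NO donor columns and 91.5, 82.6 and 69.1 in the control columns; its log2 ratio of 1.11 was 0.99 without control column 3. SLC23A2, an ascorbate transporter, had 264, 229 and 274 in the NO donor columns and 143, 142 and 154 in the control columns, a log2 ratio of 0.80. SLC52A2, a riboflavin transporter, had a ratio of 0.81, and SLC48A1, which moves haem out of endosomes and lysosomes, 0.43. SLC46A1, the proton-coupled folate carrier, had 0.40. SLC19A1, the reduced folate carrier, lay lower at 26.1, 24.3 and 27.9 in the NO donor columns and 35.0, 48.6 and 45.4 in the control columns, a log2 ratio of −0.73 that became −0.14 at total count scaling.

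Monocarboxylate and fatty acid carriers had no member of 9 higher and 1 lower at the authors' scaling, with a median of 0.32, and 4 higher and 1 lower at total count scaling, with a median of 0.92. The best-known lactate carriers stayed inside the size rule at the authors' scaling. SLC16A3, the lactate exporter of glycolytic cells (chromosome 12, 796882 to 807480), had 781, 822 and 750 in the NO donor columns and 395, 446 and 429 in the control columns, a log2 ratio of 0.89 (0.78 to 0.99), or 1.48 at total count scaling. SLC16A1, which carries lactate and pyruvate in either direction, had 199, 233 and 209 in the NO donor columns and 157, 158 and 139 in the control columns, a ratio of 0.50, or 1.10 at total count scaling. SLC27A1, a fatty acid transport protein, had 5.70, 4.06 and 4.11 in the NO donor columns and 24.2, 25.5 and 18.4 in the control columns, 4.86-fold lower (2.78 to 8.92). SLC27A4, its relative, had a ratio of 0.50, SLC27A2 and SLC27A3 had 0.31 and 0.07, and SLC16A5, SLC16A8 and SLC16A11 lay between −0.28 and 0.68. SLC16A7, a high-affinity pyruvate carrier under the minimum, had 1 count in the NO donor library against 20 in the control, 29.5-fold fewer with an interval of 4.72 to 1223.

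Sugar carriers other than the glucose transporters left out by the rule had 2 of 15 members higher and 2 lower, and the median was −0.13. These are 13.3% each, beside 13.2% higher and 18.4% lower among all genes. Total count scaling gave 4 and 0 with a median of 0.46. Those are 26.7% and 0%, beside 33% and 10.5% of all genes. SLC2A8, a glucose transporter held in intracellular membranes (chromosome 1, 267925184 to 267934096), had 65.1, 72.2 and 75.6 in the NO donor columns and 24.2, 25.5 and 20.5 in the control columns, 3.05-fold higher (2.29 to 4.13). SLC2A11, of the same family, had 68 counts in the NO donor library against 15 in the control, or 1.62. in log2 units SLC2A5, the fructose transporter, had 43.2, 55.2 and 68.2 in the NO donor columns and 121, 124 and 124 in the control columns, 2.22-fold lower; its log2 ratio of −1.15 was −0.999 without NO donor column 1 and −0.56 at total count scaling. SLC50A1, a sugar carrier of the SWEET type, had 228, 209 and 258 in the NO donor columns and 417, 413 and 442 in the control columns, a log2 ratio of −0.88. SLC2A13, the proton-coupled myo-inositol transporter, had 371, 417 and 379 in the NO donor columns and 463, 496 and 466 in the control columns; its −0.29 became 0.31 at total count scaling. SLC37A4, the glucose-6-phosphate carrier of the endoplasmic reticulum, had overlapping columns and a ratio of −0.13 (−0.34 to 0.07). SLC5A1, the intestinal sodium-glucose cotransporter, had 15 counts in the NO donor library against 21 in the control, a ratio of −1.05 that became −0.45 at total count scaling. SLC17A5, which exports sialic acid from lysosomes, had 0.79, and SLC2A6, SLC2A10, SLC2A12, SLC5A4, SLC37A1, SLC37A2 and SLC37A3 lay between −0.93 and 0.64.

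Nucleoside and nucleotide sugar carriers had 1 of 7 members higher and 1 lower, and the median was 0.05. These are 14.3% each, beside 13.2% higher and 18.4% lower among all genes. Total count scaling gave 2 and 1 with a median of 0.65. Those are 28.6% and 14.3%, beside 33% and 10.5% of all genes. SLC35A1, which supplies CMP-sialic acid to the Golgi (chromosome 1, 55859619 to 55895785), had 454, 428 and 449 in the NO donor columns and 195, 211 and 232 in the control columns, 2.07-fold higher (1.88 to 2.29); its log2 ratio of 1.05 fell just short of the size rule, at 0.997, without control column 1. SLC29A1, the equilibrative nucleoside transporter of the plasma membrane, had 8.14, 11.4 and 17.3 in the NO donor columns and 43.0, 44.9 and 25.9 in the control columns, 3.05-fold lower (2.11 to 4.46). SLC35A2 and SLC35A3, which carry UDP-galactose and UDP-N-acetylglucosamine, had ratios of 0.23 and 0.05, and SLC17A9, the vesicular nucleotide transporter, −0.40. SLC29A3, a nucleoside carrier of lysosomes, had 0.66, and SLC43A3, a purine base carrier, −0.56. SLC22A5, the carnitine transporter and the single carrier of organic ions over the minimum, had 125, 105 and 112 in the NO donor columns and 112, 112 and 99.4 in the control columns, which overlapped.

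Members whose substrate is unknown or unsettled had 5 of 18 higher and 1 lower, and the median was −0.06. These are 27.8% and 5.56%, beside 13.2% and 18.4% of all genes. Total count scaling gave 7 and 0 with a median of 0.53. Those are 38.9% and 0%, beside 33% and 10.5%. SLC22A18 had 305, 285 and 302 in the NO donor columns and 106, 125 and 145 in the control columns, 2.35-fold higher (2.07 to 2.67). SLC46A3, a lysosomal carrier, had 36.6, 35.7 and 37.8 in the NO donor columns and 20.2, 12.1 and 14 in the control columns, 2.41-fold higher (1.67 to 3.55). SLC10A4 had 22.8, 26.8 and 20.5 in the NO donor columns and 4.04, 15.8 and 3.24 in the control columns, so control column 2 stood apart. Its log2 ratio of 1.62 was 2.70 without that column. SLC22A17, a receptor for lipocalin 2, had 66.8, 56.8 and 41.9 in the NO donor columns and 143, 131 and 142 in the control columns, 2.51-fold lower; its −1.33 became −0.73 at total count scaling. SLC10A3 and SLC38A10 had ratios of −0.11 and 0.34, and SLC22A23 and SLC45A3, with 88 and 28 counts in the NO donor library against 11 and 3 in the control, had 2.44 and 2.66. SLC10A5 fell just short of the size rule at 0.997, and SLC10A7, SLC12A9, SLC16A13, SLC22A15, SLC35A4, SLC35A5, SLC44A3, SLC45A1 and SLC45A4 lay between −0.60 and 0.77.

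**Figure D5:**
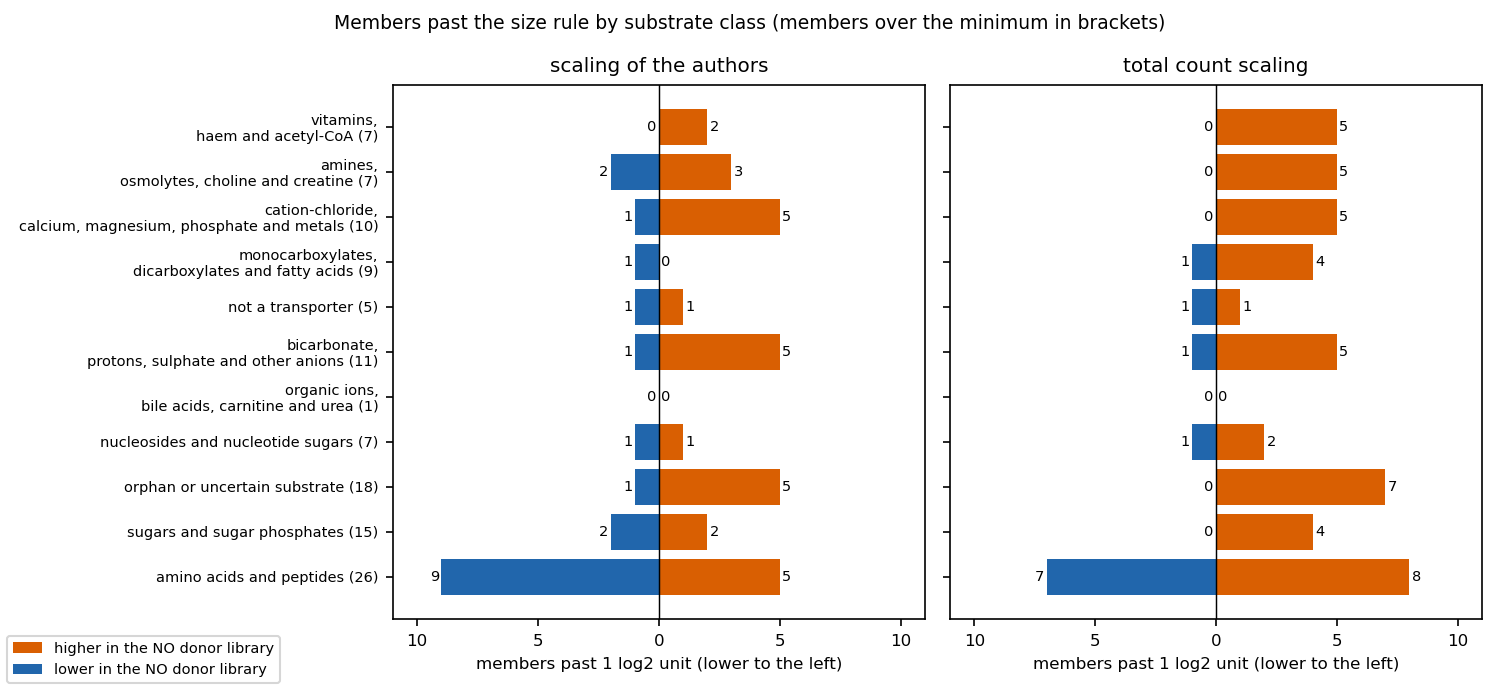
Number of members at least 1 log2 unit higher (right) or lower (left) in the NO donor library by substrate class, at the authors' scaling and at total count scaling, with the number over the minimum in brackets. Amino acid carriers, the largest class, have the most lower calls under both scalings, 9 and 7 of 26. The other classes have at most 2 each. As shares, 9 and 7 are 34.6% and 26.9%, beside 18.4% and 10.5% of all genes. Carriers of amines, osmolytes, choline and creatine have 28.6% lower at the authors' scaling, from 2 of 7, and 0% at total count scaling.

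Read by compartment, 12 members of a list of lysosomal or late endosomal carriers all passed the minimum. SLC15A4, SLC26A11, SLC31A2 and SLC46A3 were called higher, 33.3% of the 12, and none was called lower, with a median log2 ratio of 0.70. Among all genes 13.2% were higher and 18.4% lower. At total count scaling 8 were higher, or 66.7%, and none lower, with a median of 1.30, beside 33% and 10.5% of all genes. Of 15 carriers of the Golgi, endoplasmic reticulum and recycling endosomes 3 were higher and 1 lower under both scalings, or 20% and 6.67%. Their median was −0.08, or 0.52 at total count scaling. A list of vesicle carriers had 1 member over the minimum, SLC17A9. Outside all these lists, 22 of 88 members were higher and 18 lower, or 25% and 20.5%, and the median was 0.05. At total count scaling 35 were higher and 10 lower, or 39.8% and 11.4%, with a median of 0.65. These 88 hold the 5 members that are not transporters, and SLC2A8 of intracellular membranes, so they are not a plasma membrane set. The difference between compartments was not tested.

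The 5 matches that are not transporters held 1 gene higher and 1 lower, 20% each under both scalings. Among all genes 13.2% were higher and 18.4% lower, or 33% and 10.5% at total count scaling. SLC2A4RG, a transcription factor named for the promoter of a glucose transporter gene, had 15.5, 13.8 and 19.7 in the NO donor columns and 144, 124 and 122 in the control columns, 7.92-fold lower (6 to 10.6). SLC7A6OS, the gene on the opposite strand beside SLC7A6, had 401, 369 and 406 in the NO donor columns and 96.9, 115 and 105 in the control columns, 3.70-fold higher (3.24 to 4.24). SLC4A1AP, an adaptor of the band 3 anion exchanger, and SLC9A3R1 and SLC9A3R2, scaffolds that anchor the SLC9A3 exchanger, had ratios of 0.20, 0.17 and −0.34.

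Of the 28 members under the minimum, which had from 5 to 27 counts in all, 5 had no count in the control, namely SLC6A15, SLC38A3, SLC9A7, SLC46A2 and SLC7A4, with 15, 5, 20, 12 and 7 counts in the NO donor library. SLC9A3, the sodium-proton exchanger of epithelia, had 24 counts in the NO donor library against 1 in the control. The rest included SLC1A2, SLC4A11, SLC5A10, SLC7A8, SLC8A1, SLC12A4, SLC12A8, SLC13A1, SLC13A4, SLC16A7, SLC16A9, SLC16A14, SLC17A7, SLC19A2, SLC22A7, SLC22A13, SLC29A2, SLC29A4, SLC31A1, SLC34A3 and SLC45A2, and no call was made for them.

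Of 33 genes listed as partners and regulators of carriers 32 had rows and 31 passed the minimum. Of these 4 were higher and 3 lower, and the median log2 ratio was −0.09, or 8 and 0 with 0.51 at total count scaling. As shares, 4 and 3 are 12.9% and 9.68% of the list, beside 13.2% and 18.4% of all genes. The shares for 8 and 0 are 25.8% and 0%, beside 33% and 10.5%. Neither share of the list exceeded that of all genes under either scaling, and the genes below are single values. The chaperones that bring the lactate carriers to the membrane stayed inside the size rule, with BSG at 0.14 and EMB at −0.12. NPTN, listed with them, also stayed inside it, at −0.77 (−0.84 to −0.70), or −0.17 at total count scaling. All its NO donor columns lay below its control columns. SGK1, a kinase that acts on many carriers and channels, had 375 counts in the NO donor library against 31 in the control, or 3.04 in log2 units. STK39, a kinase that phosphorylates the SLC12 cotransporters, had a ratio of −1.56, while the listed kinases WNK1 and OXSR1 had 0.19 and 0.43. Among genes of amino acid sensing at the lysosome FLCN and FNIP1, which form a complex acting on the RAG GTPases, had ratios of 1.44 and 1.27, while FNIP2 had −0.39 with overlapping columns. The sestrins SESN1 and SESN3 had −1.44 and −1.29, and SESN2 had −0.17 with overlapping columns. At total count scaling STK39, SESN1 and SESN3 stood at −0.97, −0.84 and −0.70, inside the size rule. NDFIP2, an adaptor of NEDD4 ubiquitin ligases, had 1.07.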

How the data were processed

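Per the submitters' processing notes, Cell Ranger, Seurat 3.0, DESeq2 and the build Sscrofa11.1 were used, with roles not stated. The authors' deposited columns hold a signal, counts divided by 1 size factor per column. Dividing by the smallest step gave whole numbers for 100% of values (tolerance 0.01), and these were used as counts. How doublets were treated is not given in the sources used here, and no cell could be left out of the summed values. The mean, log2 fold change and its error, Wald score, p-value and adjusted p-value are the authors' deposited DESeq2 output. Counts of a library were summed, and log2 ratios used no pseudocount; a library at 0 was set to 3 counts. Level and ratio intervals are exact (Poisson and Clopper-Pearson, 95%), and the computation was tested on simulated data. No count test was run, because the labels give 1 library per group. Tools were Python 3.11.15, scipy 1.17.1 and edgeR 4.0.16 for TMM factors.

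Members, lists and tests were chosen with earlier results of these data known. Named members were up to 4 highest and 4 lowest called members of each substrate class, and the 2 with the most counts, among those with at least 100 counts, 45 in all; other members are named beyond this rule, after their values were seen. SLC2A4RG, SLC4A1AP and SLC7A6OS were moved out of the transporter classes after the rows were seen. The 3 motifs and the 6 runs of bases shown were also chosen after seeing the data. All 144 symbols matched the RefSeq annotation of Sscrofa11.1. The strand used in counting is not given in the sources used here, and 52 members overlap a gene on the other strand. Some members were counted but are not reported by name here, nor drawn gene by gene.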

Additional observations from a re-analysis of the deposited data

How the results depend on the processing

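At total count scaling 46 members were higher and 11 lower, the median became 0.65, and that of the partner list 0.51. The 0.5 size rule gave 44 and 33. Without 1 column the counts ran from 28 to 30 higher and from 18 to 20 lower, the members' median from 0.04 to 0.12 and the partner median from −0.07 to −0.03. Of 33 named calls, 5 fell short without some column (SLC2A5, SLC5A6, SLC9A8, SLC35A1 and SLC44A1). At total count scaling SLC2A5, SLC22A17, SLC41A2, SLC44A1 and SLC44A2, among the 33, fell inside the size rule. Total count and TMM scaling add 0.60 and 0.02 to every log2 ratio, so neither could change the sign of a call. None of the 33 changed sign under the authors' deposited fold change, which rests on the same columns, or a left-out column. A minimum of 100 counts gave 22 and 15, and no minimum 37 and 24. No paired analysis was possible because each group had 1 library. Depth limits the 28 members under the minimum.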

Other observations

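SLC38A1 and SLC38A2 lie on the same strand of chromosome 5 with 36767 bases between them, and their log2 ratios were −0.80 and 1.29. SLC7A6 and SLC7A6OS lie on opposite strands of chromosome 6 and overlap by 1935 bases at their ends, with ratios of 2.22 and 1.89; whether reads of 1 were counted for the other was not tested. SLC16A13 lies within the span of SLC16A11 on the other strand, and their ratios were −0.05 and 0.68. Spans shared with another gene on the same strand were annotated for 6 members, among them SLC5A3 with MRPS6, SLC22A5 with RAD50, SLC10A5 with IMPA1 and SLC38A9 with PLPP1, so their counts are uncertain.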
